A study of Mus musculus with 2 samples.

Results

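The loci described here are those of 10 Wnt ligand genes in mouse embryonic fibroblasts (MEFs): Wnt1, Wnt2, Wnt3, Wnt3a, Wnt5a, Wnt6, Wnt7b, Wnt9b, Wnt10a and Wnt10b. Each locus was taken as the annotated gene with 3 kb on either side. All 10 genes were found in the annotation and all had measured CpGs. The loci held 1430 of the 1790826 CpGs in the table, and 992 of these lay outside the sequences CCGG and TCGA, against 996064 in the whole table.

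CpG methylation was measured by reduced-representation bisulfite sequencing (RRBS), in which restriction fragments of genomic DNA are bisulfite-treated so that only methylated cytosines are still read as cytosine. The Dnmt1+/+ MEFs carried normal Dnmt1, the gene of the maintenance methyltransferase that restores CpG methylation after replication. The Dnmt1-/- MEFs were homozygous for a hypomorphic Dnmt1 allele, and cells of both genotypes also lacked trp53. There was 1 library per genotype and no replicate, the cells were untreated and grown under standard conditions, and their age is not given in the sources used here. RNA was not analysed here, so the cell type was not checked against markers. Genotype therefore cannot be told apart from any other difference between the 2 cell preparations, and every interval or p-value below covers counting error only.

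Wnt proteins are secreted, lipid-modified ligands that bind Frizzled receptors together with co-receptors such as Lrp5 and Lrp6. Most of them can stabilise β-catenin, which then acts with Tcf and Lef factors on target genes, whereas Wnt5a is best known for signalling that does not use β-catenin. In embryos they pattern the nervous system, limbs and many epithelial organs, and fibroblasts are both a source and a target of Wnt signals. Many Wnt genes start in CpG islands, CpG-rich stretches that usually lack DNA methylation.

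CpGs in CCGG and TCGA, the recognition sequences of enzymes used for RRBS, read far above their neighbours: at the Wnt promoters the 96 such CpGs averaged 53.4% in Dnmt1+/+ and 51.1% in Dnmt1-/- MEFs, while the 326 other promoter CpGs averaged 6.20% and 2.44%. Values below are therefore from the other CpGs, except where CpGs in CCGG and TCGA or all CpGs are named. A CpG is said to be called lower or higher where Fisher's exact test, two-sided and applied to its calls in the 2 libraries, gave an adjusted p below 0.05, the adjustment covering all 996064 other CpGs. These tests compare libraries and not genotypes, and CpGs on the same fragment share reads and are not replicates.

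The stretches on which the results turn are given first, 5′ to 3′ on the strand of the gene, in mm9 (NCBIM37) coordinates. Capitals mark the measured CpGs outside CCGG and TCGA. The first pair lies in the body of Wnt5a and was more methylated in Dnmt1-/- than in Dnmt1+/+ MEFs; the second of them holds an annotated internal start and ends where the next one lies. They were chosen after their values were seen. The next is coding sequence of Wnt5a with a mean of 67.9% in Dnmt1-/- MEFs, shown beside coding stretches of Wnt3a and Wnt9b in which every marked CpG was below 30% there, and the last is DNA upstream of Wnt10b with slightly higher values in Dnmt1-/- MEFs.
Wnt5a body, chr14:29324137-29324193, + strand: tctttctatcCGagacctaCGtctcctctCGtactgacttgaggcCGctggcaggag
Wnt5a body up to the internal start at 29324591, chr14:29324530-29324590, + strand: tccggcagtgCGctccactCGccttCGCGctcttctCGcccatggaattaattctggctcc
Wnt5a coding exon, chr14:29331551-29331637, + strand: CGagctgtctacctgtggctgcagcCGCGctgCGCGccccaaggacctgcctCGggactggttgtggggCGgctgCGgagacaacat
Wnt3a coding exon, chr11:59069786-59069872, - strand: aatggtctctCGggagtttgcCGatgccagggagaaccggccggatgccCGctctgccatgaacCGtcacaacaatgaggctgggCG
Wnt9b coding exon, chr11:103592327-103592484, - strand: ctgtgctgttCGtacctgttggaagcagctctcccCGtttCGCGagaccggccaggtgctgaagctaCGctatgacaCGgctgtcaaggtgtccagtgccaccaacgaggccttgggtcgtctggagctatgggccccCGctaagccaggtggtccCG
Wnt10b upstream, chr15:98611070-98611241, - strand: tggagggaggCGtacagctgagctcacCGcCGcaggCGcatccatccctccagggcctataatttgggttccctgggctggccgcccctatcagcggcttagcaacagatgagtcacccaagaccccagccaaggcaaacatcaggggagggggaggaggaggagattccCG

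Over the 992 CpGs of the Wnt loci, mean methylation was 24.4% in Dnmt1+/+ and 9.22% in Dnmt1-/- MEFs, against 45.0% and 15.1% over all other CpGs of the table. The loci rested on 62077 calls in Dnmt1+/+ and 62706 in Dnmt1-/-. Of the 992 CpGs, 291 (29.3%) were called lower and 12 (1.21%) higher in Dnmt1-/- MEFs. Genome-wide, 44.2% of other CpGs were called lower and 0.637% higher. All 12 CpGs called higher lay in the body of Wnt5a.

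Promoters, taken as the DNA within 1 kb of the gene start, were sparsely methylated in both libraries. The 10 promoter means lay between 3.52% (Wnt3a) and 12.6% (Wnt10a) in Dnmt1+/+ MEFs and between 0.837% (Wnt10b) and 5.80% (Wnt2) in Dnmt1-/- MEFs. All 10 means were lower in Dnmt1-/- MEFs, as were 84.4% of the 12837 promoters measured genome-wide. Only the Wnt10a promoter was lower by 10 percentage points or more, a size reached by 14.6% of all promoters. At a depth of at least 20 the Wnt10a difference was -6.40 points, and around every annotated start that of Wnt10b was -13.2 points. The median difference was -4.0 points over the 10 promoters and -1.34 points over all promoters, whose median levels were 2.66% and 1.21%. Of the 326 promoter CpGs, 28 (8.59%) were called lower and 0 higher, against 7.13% and 0.625% of promoter CpGs of all genes.

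Bodies, the parts of the genes more than 1 kb from the start, differed widely in Dnmt1+/+ MEFs, from 7.95% at Wnt1 to 96.0% at Wnt2. In Dnmt1-/- MEFs they ranged from 2.56% (Wnt1) to 33.8% (Wnt2). Over all 621 body CpGs the mean was 34.1% in Dnmt1+/+ and 12.7% in Dnmt1-/- MEFs. The bodies of 9 genes were lower in Dnmt1-/- MEFs and that of Wnt5a was higher, a direction that turned when promoters were drawn around every annotated start, whereas 1.33% of the 11837 bodies measured genome-wide were higher at all. Wnt9b, Wnt2, Wnt3a and Wnt7b, 4 of the 10 genes, fell by at least 25 points, against 83.7% of all bodies. This count rests on values near the limit: with pooled calls Wnt3a fell by 24.2 and Wnt7b by 18.2 points, which left 2 genes. Both also missed it within 500 bp limits (24.4 and 20.9 points) and with all CpGs (24.4 and 23.8 points). At a depth of at least 20 the differences were -34.2 points at Wnt3a and -24.9 at Wnt7b. Around every annotated start Wnt3a (-27.9), Wnt7b (-36.9) and also Wnt10b (-37.6 points) passed the limit. The median Dnmt1+/+ level of all bodies was 85.0%, so that most Wnt bodies began lower. Of the 621 CpGs, 253 (40.7%) were called lower and 12 (1.93%) higher, and the shares among body CpGs of all genes were 60.4% and 0.899%.

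**Figure D1:**
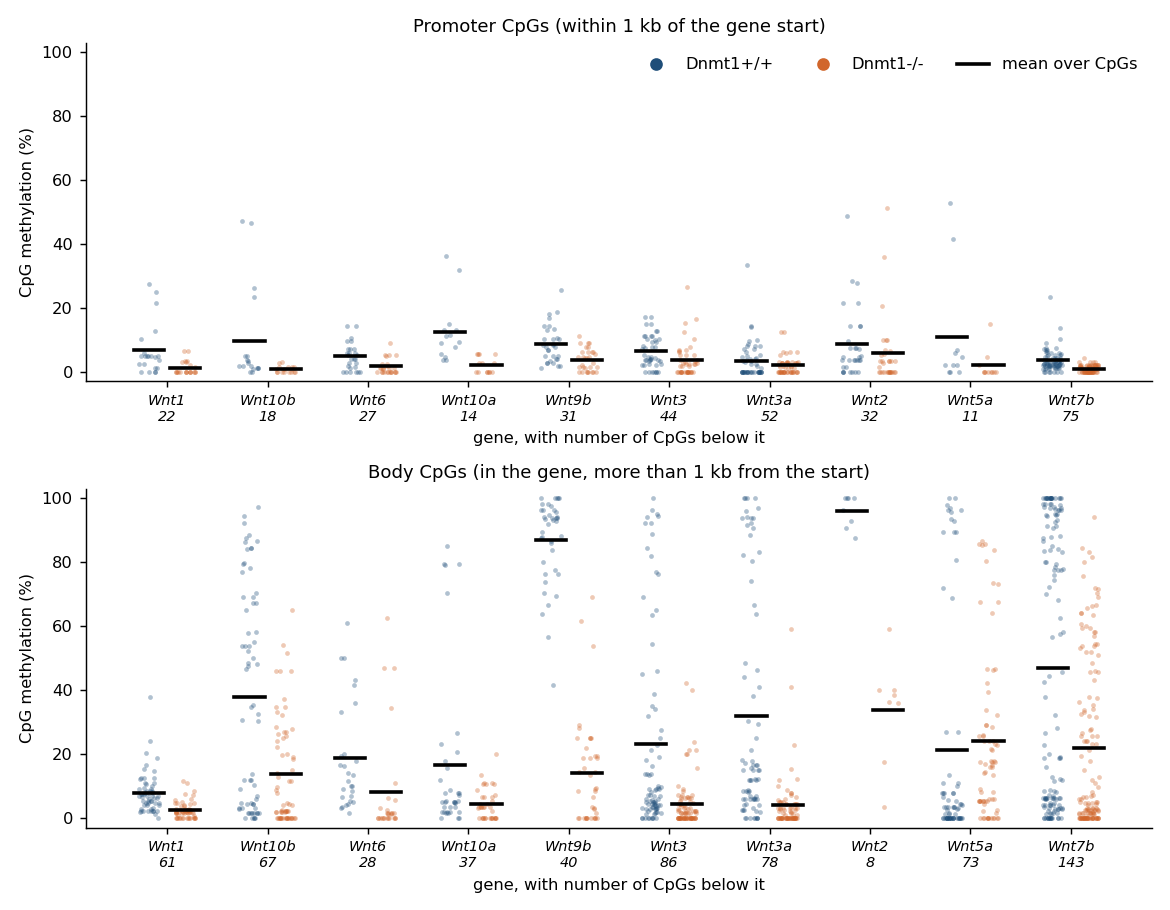
Methylation (%) of each CpG outside CCGG and TCGA in promoters (upper) and bodies (lower) of the 10 Wnt genes, with 1 point per CpG and library and a bar at the mean over CpGs. All 10 promoter means lie at or below 12.6% in both libraries, and the body mean of Wnt5a is the only one that is not lower in Dnmt1-/- than in Dnmt1+/+ MEFs.

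The first linked pair was Wnt10b and Wnt1 on chromosome 15, which lie 11.7 kb apart and are transcribed away from each other. Wnt1 (98620288-98624268, + strand), the founding member of the family and a patterning signal of the midbrain, was sparsely methylated throughout. The promoter, with 22 CpGs, stood at 6.76% in Dnmt1+/+ and 1.33% in Dnmt1-/- MEFs, and 2 CpGs were called lower. Pooling the calls gave a difference of -5.58 points (95% interval -7.26 to -3.99). The 61 body CpGs, all inside CpG islands, averaged 7.95% and 2.56%, with 13 called lower. A lone CpG 1026 bp upstream of the Wnt1 start went from 85.7% of 35 calls to 0 of 24 calls, which allows up to 12.5%.

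Wnt10b (98602184-98608581, - strand), a ligand known to restrain fat cell formation and promote bone, had a similarly low promoter and a more methylated body. Its promoter stood at 9.55% over 18 CpGs in Dnmt1+/+ and 0.837% in Dnmt1-/- MEFs, with 5 called lower. The Dnmt1+/+ average rested on a few CpGs near the edge of the promoter, since the 13 CpGs from 173 bp upstream to 219 bp downstream of the start averaged 2.22% and 0.914%. The body fell from 37.7% to 13.8% over 67 CpGs, of which 30 were called lower. With promoters around every annotated start, the promoter difference went from -8.72 to -13.2 points and the body difference from -23.9 to -37.6 points. Within it, 37 CpGs from 903 to 1702 bp after the start, some of them still in the promoter, averaged 10.1% and 1.05%. The 21 exonic CpGs towards the 3′ end, 5318 to 5927 bp from the start, averaged 65.7% and 31.6%.

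Between the 2 genes 30 CpGs were measured, and they averaged 9.12% in Dnmt1+/+ and 3.0% in Dnmt1-/- MEFs, with 4 called lower. The difference of -6.12 points was -3.11 at a depth of at least 20. The exception to the direction was a group of 8 CpGs from 2342 to 2649 bp upstream of Wnt10b, part of which is printed above. All 8 were higher in Dnmt1-/- MEFs, with a mean of 1.69% in Dnmt1+/+ and 7.74% in Dnmt1-/-. The group was picked for this direction, so its values are a description, from 394 and 263 calls. The 5 CpGs marked in the printed stretch read 2.22%, 2.17%, 0%, 0% and 0% in Dnmt1+/+ MEFs, and 13.6%, 8.70%, 8.70%, 8.70% and 12.0% in Dnmt1-/- MEFs. None of the 8 was called, and none had more than 3 methylated calls in either library.

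Wnt6 and Wnt10a, the second linked pair, lie in the same orientation on chromosome 1 with 6.196 kb between them. None of the 51 CpGs in that interval was measured. Wnt6 (74818466-74831893, + strand), a ligand of surface ectoderm and other epithelia, had a promoter at 4.81% in Dnmt1+/+ and 1.70% in Dnmt1-/- MEFs over 27 CpGs, with 2 called lower. Its body fell from 18.7% to 8.19% over 28 CpGs, with 14 called lower. Of these, 12 were among 21 exonic CpGs at the 3′ end, 12451 to 12878 bp from the start, which averaged 11.9% and 1.55%. A nearby group of 6 CpGs, 10663 to 10791 bp from the start, kept 32.8% in Dnmt1-/- MEFs from 43.1% in Dnmt1+/+, with 2 called lower.

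Wnt10a (74838090-74850753, + strand), a ligand needed for teeth, hair and skin appendages, had a low promoter measured only downstream of its start. The promoter mean over 14 CpGs was 12.6% in Dnmt1+/+ and 2.19% in Dnmt1-/- MEFs, and 13 of them were lower. Pooled over 616 and 407 calls, the difference was -8.34 points (95% interval -11.3 to -5.29). No single CpG was called. The 2 highest in Dnmt1+/+ MEFs, at 36.4% and 31.8% of 22 calls, had 0 of 12 calls in Dnmt1-/- MEFs, which still allows up to 25%. All 14 lay 482 to 821 bp after the start. The Wnt10a body fell from 16.6% to 4.42% over 37 CpGs, and 5 of its 7 lower calls came from 5 exonic CpGs around 2 kb from the start, which went from 78.8% to 8.09%. In contrast, 12 exonic CpGs between 9069 and 9334 bp averaged 8.26% and 7.92%, with 7 of them higher and 2 called lower.

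Wnt9b and Wnt3 lie head to head on chromosome 11, 24.3 kb apart. Wnt9b (103588678-103611135, - strand), which induces kidney tubules, had a sparsely methylated promoter and a highly methylated body in Dnmt1+/+ MEFs. The promoter mean over 31 CpGs was 8.70% in Dnmt1+/+ and 3.82% in Dnmt1-/- MEFs, with 3 called lower. The body fell from 87.0% to 14.2% over 40 CpGs, and 38 of the 40 were called lower. In the coding stretch printed above, the 8 marked CpGs read 88.2%, 94.1%, 100%, 94.1%, 95.8%, 84.0%, 88.0% and 92.0% in Dnmt1+/+ MEFs. The same CpGs in Dnmt1-/- MEFs read 6.45%, 19.4%, 29.0%, 19.4%, 13.3%, 0%, 3.45% and 0%. All 8 were called lower, with means of 92.0% and 11.4%. A group of 4 CpGs about 17.6 kb from the start, at 82.3% in Dnmt1+/+, was still at 46.2% in Dnmt1-/- MEFs.

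Wnt3 (103635464-103679271, + strand), needed for gastrulation and limb formation, had 44 promoter CpGs at 6.38% in Dnmt1+/+ and 3.77% in Dnmt1-/- MEFs, with 1 called lower. Its body fell from 23.0% to 4.47% over 86 CpGs, with 25 called lower. The body difference of -18.5 points was -11.1 with pooled calls. The 9 exonic body CpGs fell from 82.3% to 15.4% and all 9 were called. A run of 60 intronic CpGs from 35.376 to 36.913 kb after the start was sparsely methylated in both libraries, at 7.74% and 1.95%. The DNA between Wnt9b and Wnt3 averaged 12.6% and 4.22% over 52 CpGs, with 5 called lower. This difference of -8.38 points shrank to -3.53 at a depth of at least 20 and to -4.85 with pooled calls.

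Wnt3a (59061535-59104254, - strand), a signal of the tail bud and hippocampus and a standard activator of β-catenin in culture, also lies on chromosome 11. Its 52 promoter CpGs had means of 3.52% and 2.07%, and 7 were called lower. Pooled, the calls gave 4.91% and 1.41%, so that the difference was -3.49 points in place of -1.45. The body fell from 31.9% to 3.99% over 78 CpGs, with 30 called lower. All 13 exonic body CpGs were called lower, with means of 92.6% and 12.5%. In the coding stretch printed above, the 5 CpGs read 92.3%, 96.2%, 100%, 82.4% and 74.3% in Dnmt1+/+ and 0%, 0%, 5.71%, 11.8% and 0% in Dnmt1-/- MEFs. The second of these, at position 59069850, had the largest fall of any CpG of the loci, from 96.2% of 26 calls to 0 of 22 calls (Fisher's exact test, adjusted p = 1.04e-11). An intronic Wnt3a CpG at 59073481 fell from 100% of 70 calls to 4.44% of 90 (Fisher's exact test, adjusted p = 9.45e-39).

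Wnt2 (chromosome 6, 17938940-17980585, - strand), a ligand of lung and placenta, had the most methylated body of the family in Dnmt1+/+ MEFs and the smallest pooled promoter difference. The promoter stood at 8.56% over 32 CpGs in Dnmt1+/+ and 5.80% in Dnmt1-/- MEFs, with 0 called. Pooled, the difference was -1.89 points (95% interval -4.19 to 0.356), and for the other 9 promoters this interval lay below 0. The 16 CpGs from 880 to 1417 bp upstream of Wnt2 held their level, at 18.8% and 17.6%, with 9 lower and 4 higher. The 8 body CpGs averaged 96.0% and 33.8%, and all 8 were called lower.

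Wnt7b (chromosome 15, 85365869-85412251, - strand), which acts in lung, kidney and brain vessels, gave the most CpGs. Its promoter, the one with most CpGs (75), stood at 3.58% in Dnmt1+/+ and 1.02% in Dnmt1-/- MEFs, with 6 called lower. The 143 body CpGs averaged 47.1% and 21.9%, with 78 called lower. A group of 11 exonic CpGs about 38 kb from the start averaged 95% and 51.7% and all 11 were called. The exonic CpG at 85389375 had the highest Dnmt1-/- value of the loci, 94.3% of 35 calls against 100% of 21 calls in Dnmt1+/+ (Fisher's exact test, adjusted p = 0.755).

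**Figure D2:**
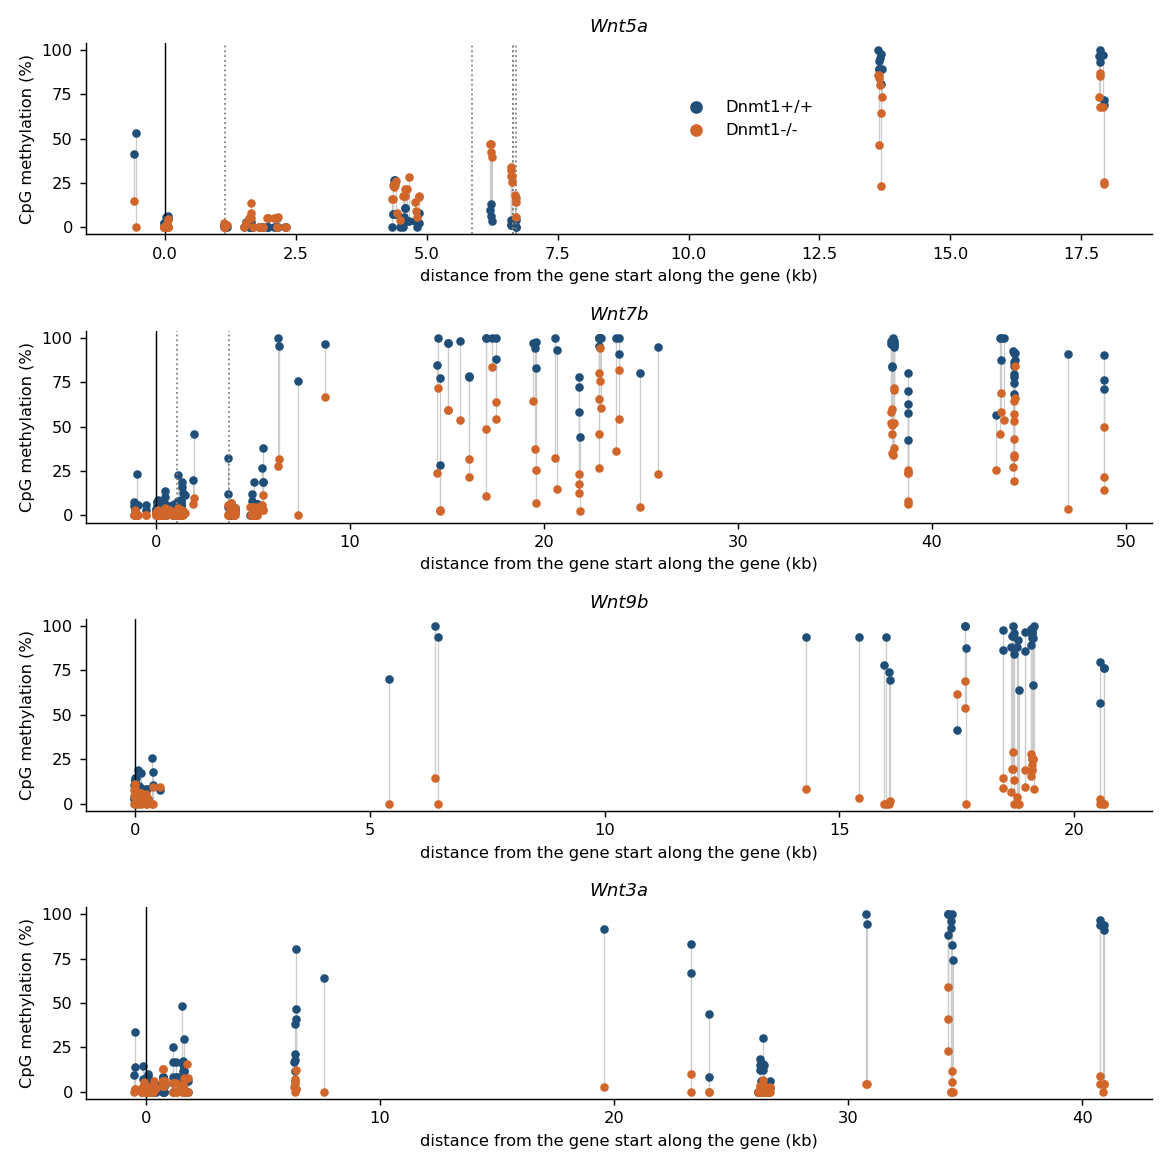
Methylation (%) of single CpGs against distance from the gene start (kb) for Wnt5a, Wnt7b, Wnt9b and Wnt3a, with Dnmt1+/+ in blue, Dnmt1-/- in orange and a grey line joining the 2 values of a CpG. The solid line is the gene start and dotted lines are other annotated starts more than 1 kb away. Most lines run down from blue to orange, and those of Wnt5a between 4 and 7 kb run mostly up.

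Wnt5a (chromosome 14, 29317936-29340633, + strand), a ligand that directs outgrowth and cell polarity and is commonly made by mesenchymal cells, was the gene whose body mean was higher in Dnmt1-/- MEFs. Its promoter mean over 11 CpGs was 10.7% in Dnmt1+/+ and 1.98% in Dnmt1-/- MEFs. This fall came mainly from 2 CpGs, 590 and 548 bp upstream, which went from 41.5% to 15% and from 52.9% to 0% and were both called lower. The promoter difference of -8.76 points was -4.17 at a depth of at least 20 and -1.88 within 500 bp of the start. The 9 CpGs from 24 bp upstream to 60 bp downstream of the start averaged 2.64% and 0.758%. The 73 body CpGs averaged 21.4% and 24.1%, with 10 called lower and 12 called higher. Pooled, the body difference was 0.735 points (95% interval -1.29 to 2.76), so that losses and gains within the body nearly cancelled.

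The gains lay between 1 and 7 kb from the Wnt5a start, and the limits of the segments given here were set after the values were seen, so that their values are a description with no test. Of the 58 CpGs measured there, 43 were higher in Dnmt1-/- MEFs, 4 lower and 11 equal, and the means were 3.51% in Dnmt1+/+ and 13.5% in Dnmt1-/-. From 1 to 2.5 kb the 26 CpGs averaged 0.499% and 2.93%, with 0 called. From 4 to 5 kb the 19 CpGs averaged 7.22% and 17.3%, with 2 called higher. Between 6 and 7 kb all 13 CpGs were higher and 10 were called, with means of 4.12% and 29.2%. These 13 rested on 920 and 917 calls.

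In the first stretch printed above, the 4 marked CpGs read 10%, 13.3%, 6.67% and 3.33% in Dnmt1+/+ MEFs and 46.7%, 42.2%, 46.7% and 39.5% in Dnmt1-/- MEFs. All 4 were called higher, and the CpG at position 29324166 had the largest rise of the loci, by 40 points (Fisher's exact test, adjusted p = 3.79e-07). In the second stretch, the 5 marked CpGs read 1.37%, 4.11%, 1.37%, 1.37% and 3.47% in Dnmt1+/+ and 29.0%, 33.9%, 32.3%, 25.8% and 29.0% in Dnmt1-/- MEFs. Their depth was 73 to 146 calls in Dnmt1+/+ and 62 to 124 in Dnmt1-/-, above the table's medians of 29 and 30 calls. Depth differed between some neighbouring CpGs, as at 29324166 with 60 and 90 calls and at 29324147 with 30 and 45. CpGs read on the same fragments are not independent.

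Annotated internal starts of Wnt5a lie at 29323804, upstream of these 13 CpGs, and at 29324576, 29324591 and 29324637, among them, 5.868 to 6.701 kb after the gene start. The first stretch ends upstream of the start at 29324591, its marked CpGs lying 409 to 444 bp from it. Another lies at 29319086, 1.15 kb after the gene start, and the 11 CpGs within 500 bp of it averaged 0.700% in Dnmt1+/+ and 4.0% in Dnmt1-/- MEFs, with 0 called. At the internal starts of Wnt1, Wnt10b and Wnt7b more than 1 kb from the gene start, the means over CpGs within 500 bp were lower in Dnmt1-/- MEFs. They averaged 6.04% and 2.82% at the Wnt1 start over 15 CpGs, and 61.9% and 14.5% at that of Wnt10b over 9. At Wnt7b the 22 CpGs of the farther start averaged 4.15% and 1.95% and the 58 of the nearer start 4.38% and 1.07%.

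Between 6 and 7 kb of Wnt5a, the 6 CpGs in CCGG and TCGA averaged 52.0% in Dnmt1+/+ and 58.9% in Dnmt1-/- MEFs, and 2 of them were called higher when all CpGs were tested. That test called 18 CpGs of the loci higher, among them 1 in CCGG or TCGA at each of Wnt10b, Wnt3, Wnt3a and Wnt7b. With each CpG thinned to 10 calls, none of the 12 Wnt5a CpGs was called higher. The single higher call over the loci was then a Wnt2 promoter CpG at 17981512, which was not called at full depth, with 27.8% of 36 and 51.3% of 39 calls (Fisher's exact test, adjusted p = 0.121). If promoters were drawn around every annotated start, the Wnt5a promoter difference turned from -8.76 to 6.11 points and its body difference from 2.68 to -5.07 points.

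**Figure D3:**
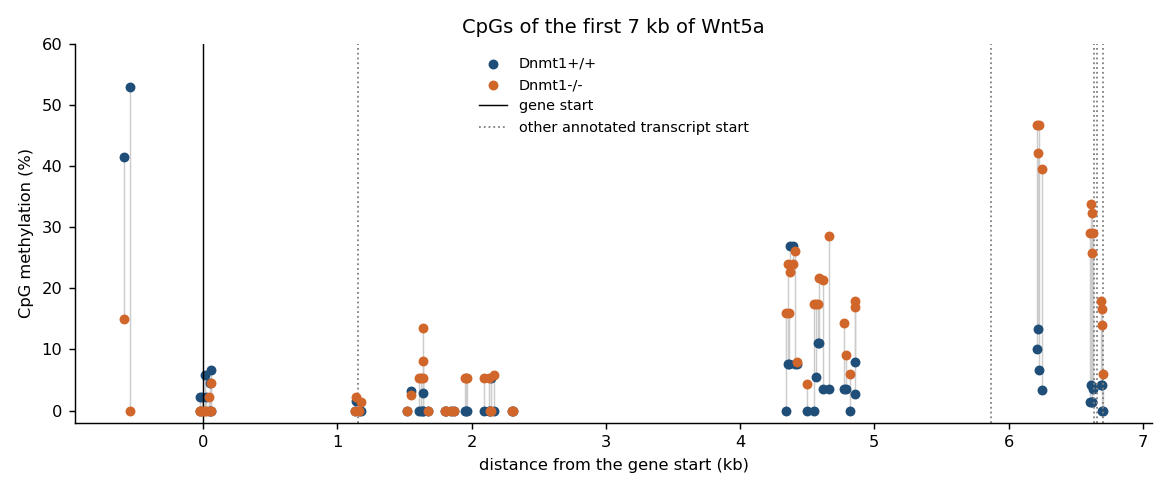
Methylation (%) of CpGs in the first 7 kb of Wnt5a against distance from the gene start (kb), with Dnmt1+/+ in blue, Dnmt1-/- in orange and grey lines joining the values of a CpG. All 13 CpGs between 6 and 7 kb are higher in Dnmt1-/- MEFs, while the 2 CpGs about 0.5 kb upstream of the gene start are lower.

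Further along, Wnt5a lost comparatively little. The coding stretch printed above holds 8 measured CpGs, which read 80.9% to 100% in Dnmt1+/+ and 23.2% to 85.7% in Dnmt1-/- MEFs, with means of 92.0% and 67.9%. Only 4 of the 8 were called lower. Another coding group of 7 CpGs, 17836 to 17934 bp from the start, averaged 89.1% and 61.6%, with 6 called lower. In it the CpG at 29335801 read 93.0% of 114 calls and 86.8% of 136 (Fisher's exact test, adjusted p = 0.274).

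To compare how much was kept from a common starting level, body CpGs at 80% or more in Dnmt1+/+ MEFs were taken from the 7 genes with at least 5 of them. Since the Dnmt1+/+ value chose these CpGs, their lower Dnmt1-/- value is a description. Over the 142 such body CpGs of all 10 genes, including 1 of Wnt10a, the mean was 93.6% in Dnmt1+/+ and 35.5% in Dnmt1-/- MEFs, near the 95.2% and 37.2% of the 203795 such body CpGs of all genes. The genes ranged around this mean. Wnt5a kept 71.1% over 13 CpGs and Wnt7b 49.5% over 53. Wnt10b followed at 37.0% over 10 CpGs, and Wnt2, at 33.8% over 8, was the first below the mean. Wnt3 kept 17.6% over 10 CpGs, Wnt9b 15.9% over 30 and Wnt3a 10.9% over 17.

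Within genes the spread between CpGs was wide, and the ranges of all 7 genes overlapped in Dnmt1-/- MEFs, so that the order of the means is a description. Single CpGs lay between 23.2% and 86.8% at Wnt5a and between 4.55% and 94.3% at Wnt7b. The range was 12.8% to 65.0% at Wnt10b, 3.45% to 59.1% at Wnt2 and 0% to 42.3% at Wnt3. At Wnt9b it was 0% to 69.2% and at Wnt3a 0% to 59.1%.

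**Figure D4:**
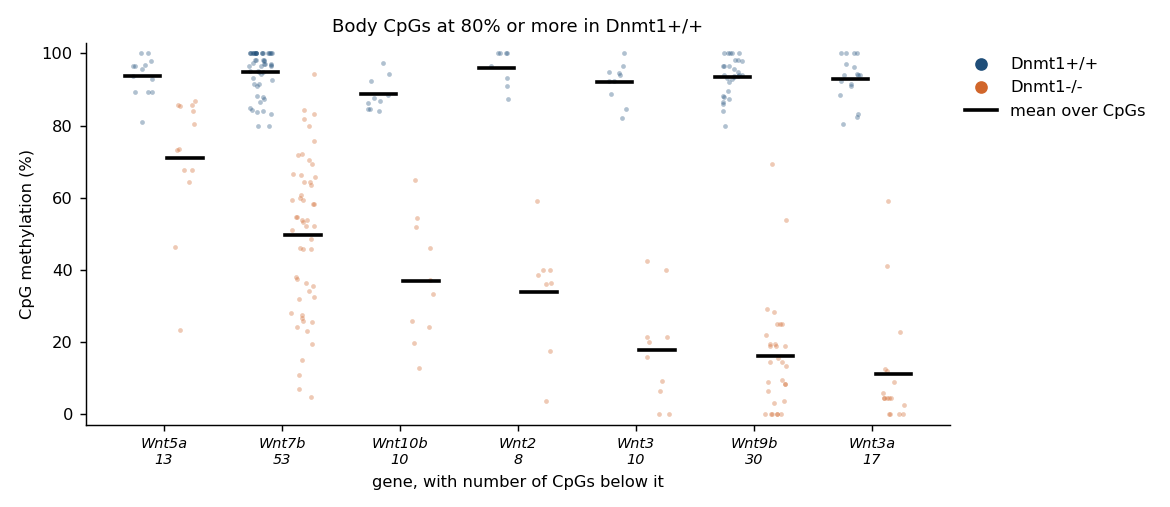
Methylation (%) of body CpGs that were at 80% or more in Dnmt1+/+ MEFs, by gene, with 1 point per CpG and library and a bar at the mean over CpGs. Genes are ordered by their Dnmt1-/- mean, from 71.1% at Wnt5a to 10.9% at Wnt3a.

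CpG islands were searched in the genome sequence of the loci as runs of at least 200 bp with a GC content over 50% and an observed to expected CpG ratio over 0.6. The 32 islands found held 727 of the 992 CpGs. Inside islands the mean was 11.3% in Dnmt1+/+ and 5.64% in Dnmt1-/- MEFs, with 111 called lower and 8 higher. Outside them it was 60.3% and 19.1% over 265 CpGs, with 180 called lower and 4 higher. Islands elsewhere in the genome were not searched, so these counts have no genome-wide share beside them. Islands were not confined to gene starts: 430 island CpGs lay outside promoters, at 15.7% and 8.05%. In the bodies of the 9 genes other than Wnt5a, 356 island CpGs averaged 14.3% and 4.95%. A few of these islands were methylated, such as that of Wnt3a holding 5 coding CpGs at 93.9% and 4.35%, and that of Wnt7b near the 3′ end with 10 CpGs at 83.4% and 48.2%. The exons and introns of the bodies stood at 40.6% and 27.4% in Dnmt1+/+ MEFs and at 15.1% and 10.3% in Dnmt1-/- MEFs. The flanks beyond the promoters gave few CpGs: 33 upstream ones averaged 13.9% and 8.28%, and 12 downstream ones 46.6% and 15.2%.

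The rest of the pathway was followed in 53 further genes, sorted by role. Of the 49 promoters with at least 5 CpGs, 3 were lower by 10 points or more and 2 higher, the share of all promoters being 14.6% and 0.647%. The count of lower promoters was 0 within 500 bp of the start and 5 around every annotated start. Of 46 bodies, 34 were lower by at least 25 points, 0 higher by as much, and 1 higher at all, against 83.7%, 0.152% and 1.33% of all bodies.

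Among the 9 other Wnt ligands, 7 promoters were measured. Wnt8a, an early embryonic ligand, had a methylated promoter that fell from 87.6% to 39.7%, while that of Wnt2b read 9.74% and 11.9%. The bodies of 5 of 8 were lower by at least 25 points, with Wnt7a falling from 72.2% to 6.44% and Wnt11 reading 34.3% and 30.9%. The smallest body difference of these ligands was -3.38 points at Wnt11, followed by -5.11 at Wnt8b and -20.8 at Wnt5b.

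Among 15 receptors, 0 promoters moved by 10 points. The largest fall was at Fzd10, from 15.8% to 7.75%, and the largest rise at Lrp6, from 1.01% to 1.26%. The body of Ror1, a receptor for Wnt5a, fell from 77.3% to 16.2%. That of Fzd1 was the body higher at all, at 20% in Dnmt1+/+ and 24.5% in Dnmt1-/- MEFs. Of the secretion genes, Porcn, which attaches the lipid to Wnt proteins, had promoter means of 2.82% and 2.34%, and Wls, the carrier that brings them to the cell surface, had a body at 65.7% and 35.8% and 0% in both libraries at its promoter.

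The secreted inhibitors held both promoters that were higher by 10 points or more. Dkk1, which blocks the co-receptors Lrp5 and Lrp6, read 16.3% in Dnmt1+/+ and 33.9% in Dnmt1-/- MEFs over 9 CpGs, and Dkk3 18.3% and 35.8% over 25. In the same list the promoter of Sfrp5, a Wnt-binding decoy, fell from 11.9% to 1.46%. All 5 measured bodies of the inhibitors were lower by at least 25 points, and that of Sfrp2, the largest fall, went from 94.0% to 24.4%. Dkk3 had the smallest fall, from 58.6% to 15.2%.

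In the signal transduction list, DNA within 1 kb of the annotated start of Ctnnb1, the β-catenin gene, was at 99.6% and 78.9% over 6 CpGs, while its body was at 2.47% and 1.26%. The promoter of Tcf7l2, a β-catenin partner, showed the largest rise of this list, from 1.0% to 1.54%, and the largest fall of a body was at Dvl2, which relays the signal from Frizzled, from 92.7% to 40.6%. Among target and feedback genes, Lgr5, a receptor for R-spondins, had the largest promoter fall, from 5.92% to 0.755%, and Axin2, a standard readout of β-catenin activity, read 1.24% and 1.17%. The body of Rnf43, a ligase that removes Frizzled receptors, fell most, from 77.9% to 14.1%.

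**Figure D5:**
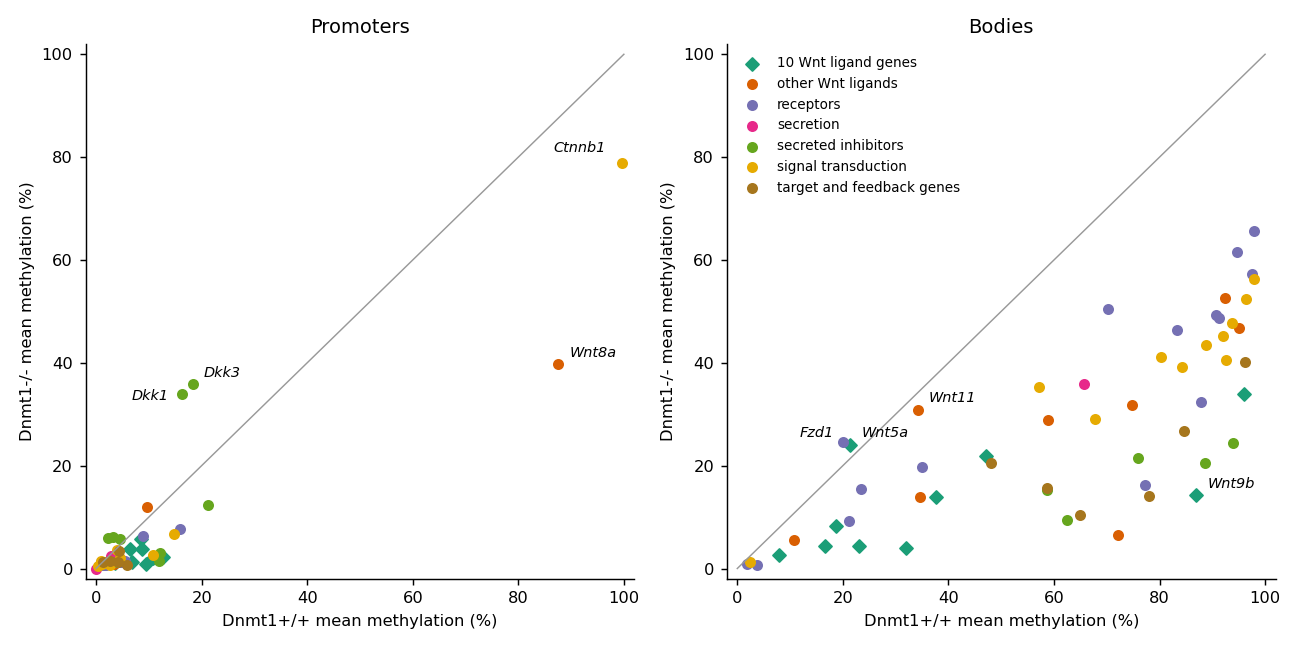
Mean methylation (%) in Dnmt1-/- against Dnmt1+/+ MEFs for promoters (left) and bodies (right) of the 10 Wnt ligand genes (diamonds) and 53 other Wnt pathway genes (circles, coloured by role) with at least 5 CpGs in the region. On the grey line both libraries are equal. Among promoters Dkk1 and Dkk3 lie farthest above it and some others slightly above it, and among bodies Wnt5a and Fzd1 lie above it.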

How the data were processed

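RRBS was carried out on genomic DNA of Dnmt1+/+ and Dnmt1-/- MEFs, 1 library per genotype, and samples were grouped by the genotype in their labels. A sequencing provider processed and mapped the reads; the submitters' processing notes name Bismark and mm9, without versions. The bisulfite conversion rate is not given in the sources used here. Depth, as deposited, counts the methylation calls at a CpG, both strands merged, and the authors kept CpGs with at least 10 calls in both libraries. The deposited percent is the share of methylated calls. Percent times depth was whole (within 0.001) at 100% of CpGs, which returned the methylated calls.

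Members and gene lists were chosen with earlier results of these data known. CpGs in CCGG or TCGA, 44.4% of the table, were left out. Genes came from GENCODE vM1 on NCBIM37. Each CpG counted once in means, and a gene's region needed at least 5 CpGs to be counted. Single CpGs were tested between the libraries with Fisher's exact test (two-sided), adjusted by Benjamini-Hochberg over all other CpGs and checked on simulated data. Differences of pooled calls were given 95% Newcombe intervals. A CpG with 0 methylated calls allows up to 3 calls, or 30.0% at a depth of 10. Intervals cover counting error only, since PCR copies cannot be told from separate molecules. Single CpGs and 200 bp windows were named by largest fall, largest rise or highest Dnmt1-/- value (3 each), and pathway genes by largest fall and rise in their list. The alternatives were all CpGs, depth of at least 20, pooled calls, other promoter limits, at least 10 CpGs, leaving out the deepest CpGs (over the 99th percentile), stricter calls, and thinning to 10 calls. Tests ran in scipy 1.17.1 and numba 0.67.0, sequence was read with pysam 0.24.0, and tables and figures used pandas 2.3.3, numpy 2.4.6 and matplotlib 3.10.9 under python 3.11.15.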

Additional observations from a re-analysis of the deposited data

How the results depend on the processing

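Differences are in percentage points, Dnmt1-/- minus Dnmt1+/+. The mean promoter difference over genes, -5.07, became -3.60 at a depth of at least 20, -3.06 within 500 bp of the start and -4.10 around every annotated start. The mean body difference, -25.6, became -21.3 with all CpGs, -22.2 at a depth of at least 20, -24.4 with pooled calls, -24.6 and -31.5 under those promoter limits, and -21.5 for genes with at least 10 CpGs. Pooling moved the flanks from -12.5 to -16.5, the DNA between linked genes from -7.56 to -4.66 and the islands from -5.67 to -4.88. A depth of at least 20 moved the DNA between linked genes to -3.37, and all CpGs moved the islands to -5.08. The DNA between Wnt6 and Wnt10a held no measured CpG. With each CpG thinned to 10 calls, 108 CpGs were called lower and 1 higher, against 291 and 12 at full depth. The promoter and body of Wnt5a turned to 6.11 and -5.07 around every annotated start, and 95 of the 97 values run for single promoters and bodies kept their direction. In size, 25 of the 97 moved by more than the width for counting error set for that value. No paired analysis was possible because neither genotype had a second library. The spread between cultures is unknown. Of the CpGs in each locus, 15.7 to 38.0% were measured, those in CCGG and TCGA included, so the share behind the main values was smaller.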
